A study of Mus musculus with 8 samples.

Results

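The ATP-binding cassette transporters of subfamily A are full-size membrane proteins that move lipids across membranes with the energy of ATP hydrolysis. Of this subfamily, 9 genes were described here in mouse liver, namely Abca1, Abca2, Abca3, Abca5, Abca6, Abca7, Abca8a, Abca8b and Abca9, out of 34836 gene and transcript names on the array, which reads them with 11 of its 55681 probes. The genes were chosen by name, but Abca3 was selected on its higher signal in the same arrays, so its strain difference and the values of the other members are given as a description without a p-value. The question of the comparison was whether the difference between the strains was shared by the subfamily or seen in Abca3 alone.

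Total RNA came from the liver of male mice aged 6 weeks, 4 of the obese strain NZO/HiBomDife (NZO) and 4 of the lean strain C57BL/6 (B6). Both strains had been kept on a high fat diet with 45% fat, and no group on another diet was part of the comparison, so the 2 groups differ in strain and share age, sex, diet and tissue. Each RNA sample was labelled with Cy3 and hybridised to 1 array of a 1-colour Agilent design with probes of 60 bases. The numbers of the samples in the labels are 007, 003, 009 and 011 for NZO and 011, 010, 015 and 009 for B6, and nothing in the labels says whether the samples come from different litters or days. The 8 arrays hold 59305 spots besides controls each, of which 50.4% to 55.0% were well above background on the NZO arrays and 53.1% to 60.1% on the B6 arrays. No spot was saturated. The hepatocyte genes Alb, Ttr, Apoa1, Cps1 and Tat were well above background on all 8 arrays, and 0 of the 5 were called different between the strains by the rule given below. The arrays lay on 5 slides scanned on 2 days. Only 1 slide held both strains, with 1 NZO array (003) and 2 B6 arrays (010 and 015). A fit with the slide as a fixed block takes its strain difference from that slide alone and leaves few residual degrees of freedom. A call lost in that fit is therefore not read as dependence on the slide. The array of NZO 007 stood apart in skeletal muscle genes (Ckm, Acta1, Myh4 and Tnnt3), whose summed signal there was 17.8 times the array's 75th percentile, against 0.136 to 5.70 on the other 7 arrays. The differences of the subfamily, of the gene lists and of the neighbouring genes were therefore also computed without that array.

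As background, members of subfamily A differ in the membrane they work in. ABCA1 hands cholesterol and phospholipid from the cell surface to apolipoprotein A-I, which is the first step of HDL formation, and it is induced by the liver X receptors (LXR) when cells are rich in sterols. ABCA3 fills the lamellar bodies of lung alveolar type II cells with surfactant phospholipid, mainly phosphatidylcholine. ABCA2 and ABCA5 reside in endosomes and lysosomes, ABCA7 moves phospholipid and takes part in phagocytosis, and the closely related genes Abca5, Abca6, Abca8a, Abca8b and Abca9 form a gene block whose substrates are less well known.

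The 5 genes of that block lie next to each other on chromosome 11 of GRCm38.p6, from 109932206 to 110337723, in the order Abca8b, Abca8a, Abca9, Abca6 and Abca5. The block is 405.5 kb long and its neighbouring genes are at most 29.4 kb apart. Abca3 lies on chromosome 17 from 24351921 to 24410204, Abca1 on chromosome 4 from 53030789 to 53159988, Abca2 on chromosome 2 from 25428599 to 25448544 and Abca7 on chromosome 10 from 79996453 to 80015572 of the same build. The probes were placed by the array's own files on the older build mm9, and coordinates of the 2 builds are not interchangeable. The Abca3 probe (A_55_P2062936) was placed at chr17:24547066-24547125 on the plus strand of mm9. Abca2 and Abca5 were each read by 2 probes and the other 7 genes by 1 probe each.

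Of the 11 probes, 3 are printed here because they lie in coding sequence and stand for a gene with a large difference between the strains (Abca5) and for genes with hardly any (Abca2 and Abca8a). The sequences are those of the array files, 5′ to 3′ in the sense of the transcript and without any part set in capitals. The Abca5 probe spans 1100 bases of the genome with its 60 bases and so crosses an exon junction.
Abca5 A_52_P519653 (chr11:110136682-110137781 of mm9, minus strand): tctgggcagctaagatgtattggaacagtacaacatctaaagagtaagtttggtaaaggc
Abca2 A_55_P2021177 (chr2:25302851-25302910 of mm9, plus strand): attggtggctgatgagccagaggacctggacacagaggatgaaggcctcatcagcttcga
Abca8a A_55_P2102769 (chr11:109945491-109945550 of mm9, minus strand): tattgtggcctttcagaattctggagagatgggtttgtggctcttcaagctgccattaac

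All levels below are the log2 of the background-subtracted signal minus the 75th percentile of the array, so that a level of 0 is the signal of that percentile and 1 unit is a doubling. Levels are compared between arrays for 1 probe and never between probes, because probes bind with different efficiency. Whether the strains differ in sequence under the 60 bases of a probe was not tested, so every strain difference below is one of signal, and genes read by 1 probe, such as Abca3, have no second probe to set beside it. A probe was called when its adjusted p (limma, Benjamini-Hochberg over all 27643 probes tested) was at most 0.05 and its log2 fold change was at least 0.7 in size. By this rule 1199 probes (4.34%) were higher and 1460 (5.28%) lower in NZO than in B6, and of 14318 genes represented by their brightest probe 4.52% were higher and 5.49% lower. The signal of all 4 NZO arrays lay above all 4 B6 arrays for 11.3% of probes and below them for 10.7%. A probe was tested when all 4 arrays of at least 1 strain had it well above background. A probe that enters through 1 strain alone is favoured to be higher in that strain, so nothing is read from its call. Of the called probes named here this applies to Abca5 (junction probe), Abcb1b, Cftr and Slc34a2, which entered through NZO, and to Abcg3, Napsa and Itgax, which entered through B6. Counts under another filter on dim probes are given below without the share of all genes called under that filter. Nothing is read from them about a list. Among probes above background on all 8 arrays 1924 were called (49.9% of them higher), and without a filter 2471 (45.0% higher). In whole tissue, fewer cells of a type and less RNA per cell cannot be told apart. The gene lists below were chosen with earlier results of these data known. Their counts are thus a description, also where they stand beside the share of all genes.

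Abca3 was higher in NZO liver on every array. Its level was 6.89 in NZO 007, 6.97 in NZO 003, 7.0 in NZO 009 and 7.06 in NZO 011. In B6 it was 4.50 in sample 011, 4.62 in 010, 4.71 in 015 and 4.69 in 009. The strains did not overlap, and the gap between the lowest NZO and the highest B6 array was 2.17 on the log2 scale, while the spread within a strain was small (SD 0.07 in NZO and 0.10 in B6, n = 4 each). The mean rose from 4.63 in B6 to 6.98 in NZO, a log2 fold change of 2.35 (SE 0.09) or 5.09-fold. A larger increase was found for 0.698% of all probes tested. On the slide that held both strains the difference was 2.30, and it was 2.34 within the first scan day and 2.29 within the second. Without NZO 007 it was 2.38. The probe was well above background on all 8 arrays.

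**Figure D1:**
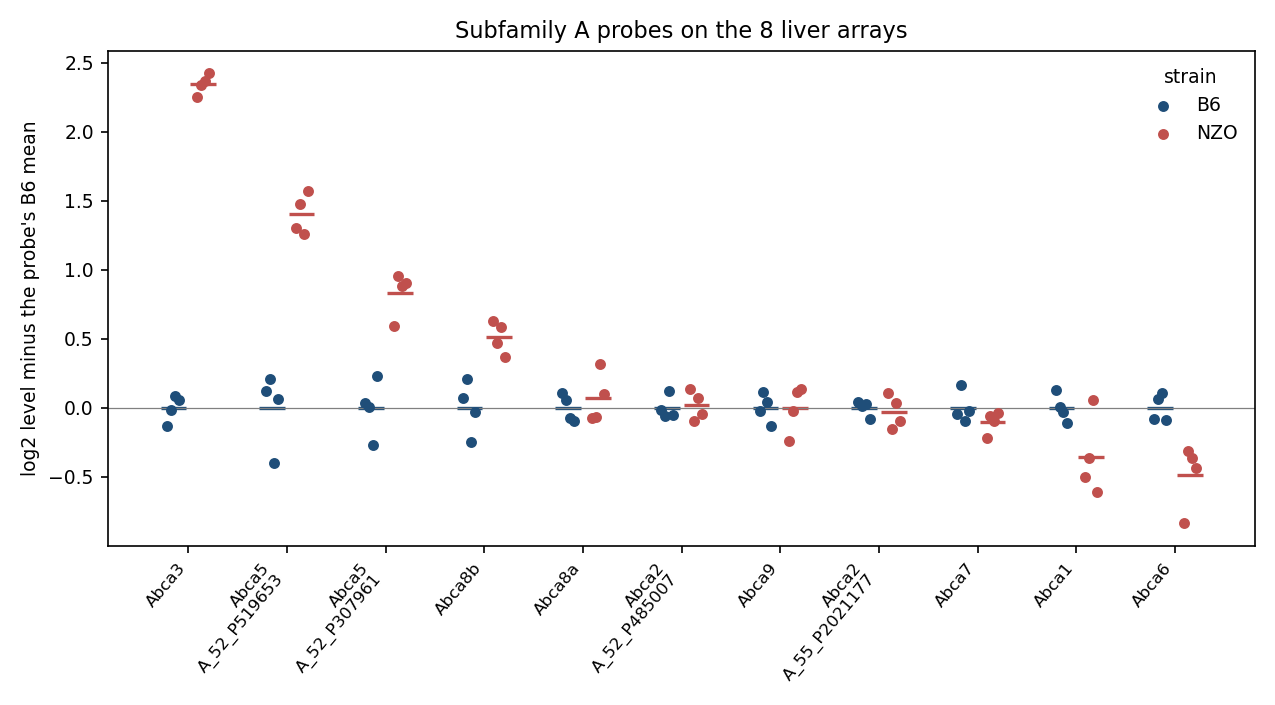
Level of each subfamily A probe on the 8 liver arrays, as log2 signal minus the mean of the 4 B6 arrays of the same probe (vertical axis), with probes in order of their strain difference (horizontal axis). Points are arrays and short lines are strain means. The 4 NZO points of Abca3 lie about 2.35 above the B6 mean, those of both Abca5 probes lie lower but still above B6, and most other probes lie around 0.

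Abca5 was the other member called higher in NZO, at low levels. With the junction probe, the NZO arrays gave -2.46 in 007, -2.29 in 003, -2.51 in 009 and -2.20 in 011. The B6 arrays gave -3.64 in 011, -3.56 in 010, -4.17 in 015 and -3.70 in 009. The strains did not overlap, and the log2 fold change was 1.40 (SE 0.15), or 2.64-fold. This probe was well above background on 4 NZO and 3 B6 arrays, and B6 015 was its lowest array. The other Abca5 probe (A_52_P307961), which was above background on all arrays, gave -1.62, -1.26, -1.33 and -1.31 in NZO 007, 003, 009 and 011. In B6 011, 010, 015 and 009 it gave -2.18, -2.21, -2.49 and -1.99. The strains again did not overlap, and the log2 fold change was 0.84 (SE 0.14), or 1.78-fold. Within the second scan day, which held 1 NZO and 2 B6 arrays, this difference was 0.47 against 1.05 within the first, and the junction probe gave 1.21 and 1.53. On the slide with both strains the differences were 1.57 (junction probe) and 1.09, but with the slide as a fixed block neither was called. Both Abca5 values were smaller with normexp background correction, at 0.41 (junction probe) and 0.42. They were 0.42 and 0.39 with the table deposited as normalized. That table holds raw intensities without background subtraction or scaling between arrays, so its values cannot be put down to 1 of these choices. Neither probe was called in either case.

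None of the other 4 genes of the chromosome 11 block was called. Abca8b, the gene farthest from Abca5, was 3.67, 3.52, 3.63 and 3.41 in NZO 007, 003, 009 and 011 and 3.11, 3.26, 2.80 and 3.01 in B6 011, 010, 015 and 009. The strains did not overlap, but the log2 fold change of 0.51 (SE 0.12) was below the size asked for by the call rule. Abca6 lay on the other side, with 1.86, 2.38, 2.33 and 2.26 in NZO and 2.62, 2.76, 2.80 and 2.61 in B6 in the same order of samples. Every NZO array was below every B6 array, and the log2 fold change was -0.49 (SE 0.13), or -0.37 without NZO 007, the lowest array. Abca8a overlapped, ranging from 0.96 to 1.35 in NZO and from 0.94 to 1.14 in B6 (log2 fold change 0.07, SE 0.12). Abca9 overlapped as well, from -1.99 to -1.61 in NZO and from -1.88 to -1.64 in B6 (log2 fold change -0.003, SE 0.116). Of 13 other genes within 250 kb of the block, 4 had a probe and 2 were tested, the pseudokinase Fam20a (log2 fold change 0.14, limma adjusted p = 0.435) and the stress kinase Map2k6 (0.18, limma adjusted p = 0.622), and neither was called.

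Abca1, the member with the best known role in liver, was not higher in NZO. Its level was 2.66 in NZO 007, 2.79 in 003, 3.21 in 009 and 2.55 in 011, and it was 3.29, 3.17, 3.13 and 3.05 in B6 011, 010, 015 and 009. NZO 009 lay inside the B6 range and the other 3 NZO arrays below it, with a log2 fold change of -0.35 (SE 0.15). Within the slide with both strains and within each scan day it was -0.51 to -0.30. Abca2 gave nearly the same level in both strains with both of its probes. The coding probe printed above ranged from 0.30 to 0.56 in NZO and from 0.37 to 0.50 in B6 (log2 fold change -0.03, SE 0.10), and the other probe (A_52_P485007) from 1.52 to 1.75 and from 1.55 to 1.73 (0.02, SE 0.10). Abca7 ranged from 1.67 to 1.86 in NZO and from 1.80 to 2.06 in B6, with a log2 fold change of -0.10 (SE 0.10).

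Over the subfamily, 3 of 11 probes from 2 of 9 genes were called higher and 0 were called lower, against 4.34% and 5.28% of all probes. Among probes above background on all 8 arrays, 2 subfamily probes were called, Abca3 and the other Abca5 probe. Since Abca3 and its relatives were chosen with this contrast known, nothing is read from that share. The groups did not overlap for 4 probes that were higher in NZO and 1 that was lower, beside 11.3% and 10.7% of all probes, and they overlapped for 6. The median log2 fold change of the 11 probes was 0.02, against 0.01 over all probes tested. The SD within a strain ran from 0.06 (Abca2 in B6) to 0.29 (Abca1 in NZO). Measured array by array as the signal of Abca3 minus that of another member, the strain difference of Abca3 exceeded that of every other probe, and the lowest NZO array was above the highest B6 array in each of these 10 differences. The excess was smallest against the Abca5 junction probe (0.94 on the log2 scale, SE 0.18) and the other Abca5 probe (1.51, SE 0.13). The junction probe was not above background on B6 015. Both of these excesses were larger with normexp background correction, at 1.87 (junction probe) and 1.86, and with the deposited table, at 1.74 and 1.78. The offset added by normexp and the background kept in that table shrink the fold changes of dim probes such as those of Abca5. Nothing is therefore read from the larger excesses. The excess was 1.83 (SE 0.16) against Abca8b, and from 2.28 against Abca8a to 2.83 against Abca6 for the remaining probes.

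The subfamily has 7 further genes on the array, Abca4, Abca12, Abca13, Abca14, Abca15, Abca16 and Abca17. Abca4 works in the retina and Abca12 in the skin, while Abca14, Abca15, Abca16 and Abca17 belong to a rodent group known from testis. Of their 12 probes, 10 were above background on no array, and for 5 of the 7 genes this held for every probe. Abca14 was above background on 1 B6 array. Abca17 was the exception, with 1 of its 2 probes above background on all 8 arrays. Abca17 lies head to head with Abca3 on chromosome 17, from 24264257 to 24352058 of GRCm38.p6, and so overlaps the start of Abca3. Its level was -0.18, -0.51, -0.57 and -1.11 in NZO 007, 003, 009 and 011 and -1.14, -0.50, -1.36 and -1.76 in B6 011, 010, 015 and 009. The strains overlapped, and the log2 fold change of 0.60 (SE 0.29) did not pass the test (limma adjusted p = 0.226).

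The genes around Abca3 were examined next. Of 33 other genes within 250 kb of either end of Abca3, 25 had a probe and 19 were tested. None of them was called higher and 3 were called lower, beside 4.52% and 5.49% of all genes with a tested probe. The median log2 fold change of the 19 genes was 0.03, against 0.02 over all genes. The 3 lower genes were Ccnf (cyclin F, a subunit of a ubiquitin ligase), 100.5 kb before Abca3, with -2.22 (SE 0.21, limma adjusted p = 0.000254), Tedc2, a centriole gene 131 kb before it, with -1.46 (SE 0.21, limma adjusted p = 0.00259), and Dnase1l2, a DNA-cutting enzyme 29.9 kb behind it, with -1.71 (SE 0.22, limma adjusted p = 0.00143). Ccnf was -0.56, 0.15, 0.22 and 0.18 in NZO 007, 003, 009 and 011 and 2.02, 2.62, 2.14 and 2.11 in B6 011, 010, 015 and 009, so that the strains did not overlap. Dnase1l2, with levels from -3.07 to -2.75 in NZO, lost its call with normexp background correction, where its log2 fold change was -0.46. Of the 6 neighbours that were too dim to be tested, Npw, the precursor of neuropeptide W, was above background on 3 NZO and 0 B6 arrays. Its fold against background was 1.33 toward NZO. Bricd5 was above background on 2 NZO and 0 B6 arrays (1.33 toward NZO), but its strains overlapped. B6 010 (-4.04) lay above NZO 007 (-4.17) and NZO 003 (-4.20). Tbc1d24 was above background on 0 NZO and 3 B6 arrays (1.28 toward B6). In these folds the detection limit of an array stands for dimmer values of the strain at background. Undetected arrays of the other strain count with their own signal, so these folds are not strict lower bounds. Without the filter on dim probes 4 neighbours were called, Npw higher and Ccnf, Tedc2 and Dnase1l2 lower, beside 2471 called over all probes there (45.0% of them higher).

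Beside Abca17, which overlaps Abca3 and is described above, the nearest tested genes were Rnps1 and Eci1. Rnps1, a splicing factor 4.4 kb behind it, had a log2 fold change of 0.03 (SE 0.12, limma adjusted p = 0.894), and Eci1, a mitochondrial enzyme of fatty acid oxidation, 0.15 (SE 0.15, limma adjusted p = 0.56). Of the others, Pdpk1 (0.30), Amdhd2 (0.08), Atp6v0c (-0.03) and Ntn3 (-0.47) lie before Abca3. E4f1 (-0.24), Pgp (0.13), Mlst8 (0.17), Traf7 (-0.06), Rab26os (0.25), Pkd1 (-0.33), Tsc2 (0.17), Nthl1 (0.35) and Slc9a3r2 (-0.44) lie behind it. Rab26os and Pkd1 were highest in NZO 007, and without that array Rab26os turned to -0.11 and Pkd1 had -0.55. A probe for the antisense transcript D330041H03Rik, placed over the mm9 region of the Abca3 probe on the other strand, was at background on all 8 arrays.

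**Figure D2:**
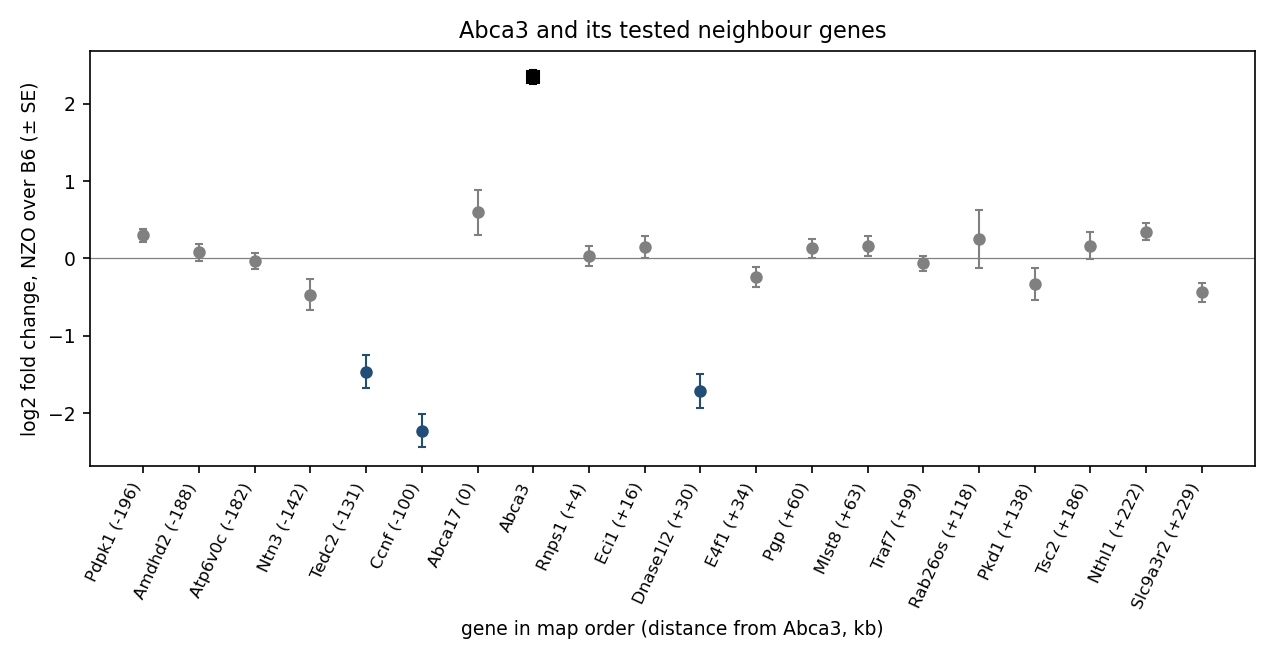
Log2 fold change of NZO over B6 (vertical axis, bars are the SE of the fit) for Abca3 (black square) and its 19 tested neighbour genes in map order (horizontal axis, distance from Abca3 in kb in brackets). Blue points mark the 3 genes called lower, and grey points were not called. Rnps1 and Eci1 beside Abca3 lie near 0, whereas Abca3 lies at 2.35.

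The genes with the pattern most like that of Abca3 were found by the mean absolute difference of their levels from those of Abca3 over the 8 arrays, after each probe's own mean had been subtracted. The 5 closest were Gstm7, a glutathione transferase (0.0995), Dera, an aldolase of deoxyribose phosphate (0.129), Ccdc68, a centriolar protein (0.136), Ces1b, a carboxylesterase (0.137), and Fam229b (0.144). Their correlation with Abca3 over the arrays was 0.99 to 1.00 and is set by the step between the strains, since these genes were ranked for it. Gstm7 was 4.52, 4.72, 4.60 and 4.62 in NZO and 2.27, 2.49, 2.27 and 2.26 in B6 in the order of samples used above, a 4.90-fold difference. The other 4 differed 5.82-fold (Dera), 4.22-fold (Ccdc68), 5.27-fold (Ces1b) and 5.13-fold (Fam229b). None of the 5 lies on chromosome 17.

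**Figure D3:**
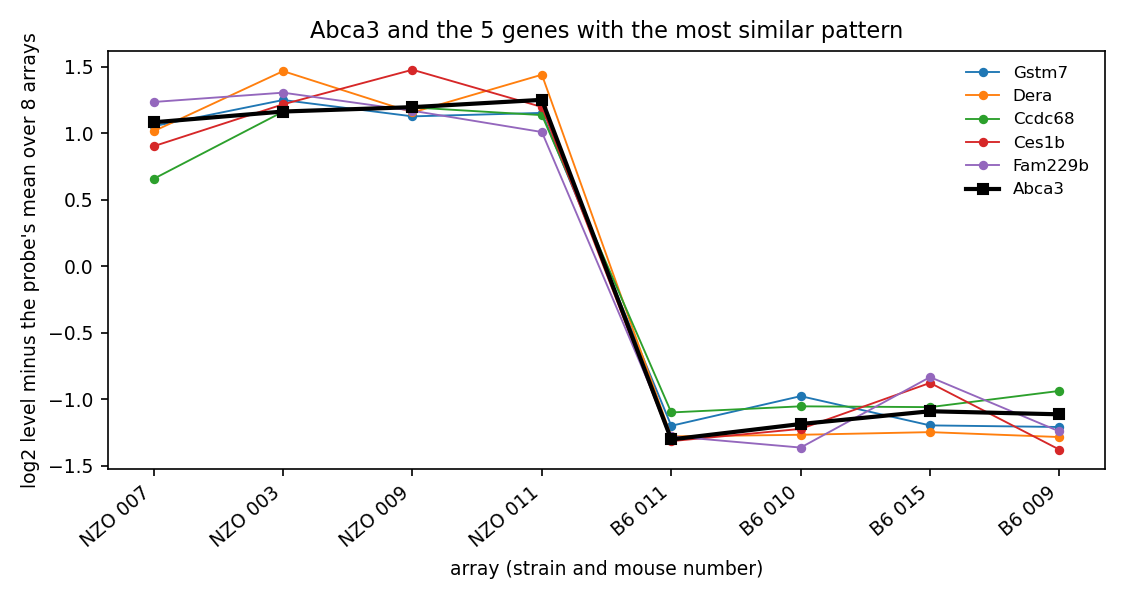
Level of Abca3 (black) and of the 5 genes closest to it on each array, as log2 signal minus the probe's mean over the 8 arrays (vertical axis). Arrays are named by strain and sample number (horizontal axis), and lines only join the points of a gene. Abca3 is about 2.35 apart between the strains, as are the 5 genes, with 2.08 (Ccdc68) to 2.54 (Dera).

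The ABC transporters of the other subfamilies showed strain differences in both directions. Of 36 such genes, 34 were tested, 3 were called higher and 5 lower, beside 4.52% and 5.49% of all genes, with a median log2 fold change of -0.04 against 0.02. Among probes above background on all 8 arrays, 1 was called higher and 4 lower, beside 1924 called over all probes there (49.9% of them higher). The 3 higher genes included Abcb1b, a multidrug efflux pump of the P-glycoprotein type. Its level was 1.05, 1.24, 1.66 and 1.19 in NZO 007, 003, 009 and 011 and -3.12, -3.09, -3.87 and -3.26 in B6 011, 010, 015 and 009, where 1 array was not well above background, so that it was tested through NZO alone. Its log2 fold change was 4.62 (SE 0.21), and it ranged from 2.45 to 4.72 over the 17 alternatives examined for single genes. Tap2, a subunit of the peptide transporter of antigen presentation, was 2.14-fold higher (limma adjusted p = 0.000171). Cftr, a chloride channel, was higher by 1.15 (SE 0.30) near background, also tested through NZO alone, and its call held in 4 of the 17 alternatives. It was lost when any array but NZO 011 was left out (0.98 to 1.24).

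Among the 5 lower transporters were exporters at the bile side and the blood side of the hepatocyte. Abcb11, the bile salt export pump, was 5.79, 5.85, 5.88 and 5.47 in NZO and 6.83, 6.95, 6.89 and 6.86 in B6. The strains did not overlap, with a log2 fold change of -1.13 (SE 0.11, limma adjusted p = 0.000328). Abcc3, which exports conjugates into blood, had -1.25 (SE 0.12, limma adjusted p = 0.000264), and the mitochondrial transporter Abcb10 -0.97 (SE 0.12, limma adjusted p = 0.00111). Abcg5, which forms the sterol exporter of bile with Abcg8, was lower by 0.82 (limma adjusted p = 0.0149). Abcg8 had a similar value of -0.81 but a wider spread in NZO (SD 0.65, n = 4), overlapped between the strains and did not pass the test (limma adjusted p = 0.122). Abcg3 was lower near background (-0.91) and was tested through B6 alone, with 1 NZO array above background, and its value was 0.01 with normexp background correction. Abcb4, the phosphatidylcholine exporter of bile, was close to equal, with a log2 fold change of 0.02 (SE 0.13, limma adjusted p = 0.934). With the slide as a fixed block, Abcb11, Abcb10, Abcg5, Abcg3, Tap2 and Cftr were no longer called, while Abcb1b and Abcc3 were. Within the slide that held both strains, the differences were -1.07 for Abcb11, -0.72 for Abcb10, -0.78 for Abcg5, -1.25 for Abcg3, 1.04 for Tap2 and 1.19 for Cftr.

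Phosphatidylcholine, the main lipid carried by ABCA3 in lung, is made in liver by the choline and the ethanolamine pathways. Of 21 genes of its synthesis and remodelling, 17 were tested, 0 were called higher and 2 lower, beside 4.52% and 5.49% of all genes, with a median of 0.02. Pctp, the phosphatidylcholine transfer protein, fell by 2.21 (SE 0.31, limma adjusted p = 0.0019), from 1.44, 1.91, 1.61 and 1.91 in B6 011, 010, 015 and 009 to -0.72, 0.25, -0.22 and -1.27 in NZO 007, 003, 009 and 011. Etnk2, an ethanolamine kinase, had -1.06 (SE 0.16, limma adjusted p = 0.00314) with its brightest probe, and 1 of its 3 probes was not called. Neither Pctp nor Etnk2 was called with the slide as a fixed block, with -1.52 and -1.19 within the slide that held both strains.

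Of 12 genes of lung surfactant and of lamellar bodies, the compartment that ABCA3 fills, 7 were tested in liver, 1 was called higher and 1 lower, beside 4.52% and 5.49% of all genes, with a median of -0.03. The surfactant proteins Sftpb and Sftpc and the lung transcription factor Nkx2-1 were at background on all 8 arrays. Sftpd, a surfactant protein of innate defence, was above background on all 8 arrays, with a log2 fold change of -0.91 (SE 0.41, limma adjusted p = 0.19) and overlapping strains. Sftpa1 was above background on 4 NZO and 1 B6 arrays, with 1.11 (SE 0.36, limma adjusted p = 0.0843) and overlapping strains, and neither was called. Slc34a2, a phosphate transporter of alveolar type II cells, was above background on all 4 NZO and 0 B6 arrays, with -3.34, -2.95, -2.23 and -2.08 in NZO 007, 003, 009 and 011. It was at least 3.05-fold higher in NZO, by a fold against background made as for Npw, here with all 4 NZO arrays detected. Its log2 fold change was 0.62 with normexp background correction, where it was not called, and 0.81 with the deposited table. Napsa, an aspartic protease, was lower by 1.45, tested through B6 alone with 1 NZO array above background, and its call was lost when any array but NZO 007 or NZO 011 was left out (-1.48 to -1.38). Its log2 fold change was -0.05 with normexp background correction and -0.44 with the deposited table, and it was called in neither. Both called genes of this list had thus been tested through the strain in which they were higher, and among probes above background on all 8 arrays 0 of the list were called. Lamp3, a membrane protein of lamellar bodies, had -0.22 (limma adjusted p = 0.334), and -0.10 without NZO 007.

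Of 23 genes of the lysosomal membrane and of lysosomal lipid breakdown, where ABCA2 and ABCA5 reside, 22 were tested. Lipa, the lysosomal acid lipase, was called higher, and 0 were called lower, beside 4.52% and 5.49% of all genes, with a median of -0.03. Lipa was 4.74, 5.19, 5.05 and 5.06 in NZO and 3.80, 4.04, 3.89 and 4.03 in B6, without overlap (log2 fold change 1.07, SE 0.12, limma adjusted p = 0.000738). Lamp1 and Lamp2, the major membrane proteins of lysosomes, had values of 0.01 and -0.04. With the deposited table, which is not scaled between arrays, 5 genes of this list were called. Beside them, 576 of all probes were called higher and 1422 lower there, and the median log2 fold change of all probes was -0.15. Nothing is read from that count about the list.

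In the pathway of ABCA1, 26 genes of the LXR response, cholesterol efflux and HDL were listed and 25 tested. None was called higher and 3 were called lower, beside 4.52% and 5.49% of all genes, with a median of 0.10. Scarb1, the HDL receptor, was lower by 1.36 (SE 0.19, limma adjusted p = 0.00198) and by 1.40 with its other probe, but it was not called with the slide as a fixed block (-1.30). Srebf1, a regulator of lipid synthesis and LXR target, was lower by 0.79 (SE 0.17, limma adjusted p = 0.0159), but it lost its call without NZO 007 (-0.69) or B6 009 (-0.67) and with that block (-0.52). Abcg5 was the third. The receptor Nr1h3 (LXR alpha) had 0.10 (limma adjusted p = 0.624) and Apoa1, the acceptor of ABCA1, 0.00 (SE 0.13, limma adjusted p = 0.989). Cyp7a1, the rate-limiting enzyme of bile acid synthesis, had 1.51 (SE 0.43) and missed the threshold narrowly (limma adjusted p = 0.0509). Among probes above background on all 8 arrays it was called higher (limma adjusted p = 0.0467), so that the list then had 1 higher and 3 lower genes. With the deposited table, which is not scaled between arrays, 7 genes of the list were called. Over all probes 576 were then called higher and 1422 lower, with a median log2 fold change of -0.15. Nothing is read from that count about the list.

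**Figure D4:**
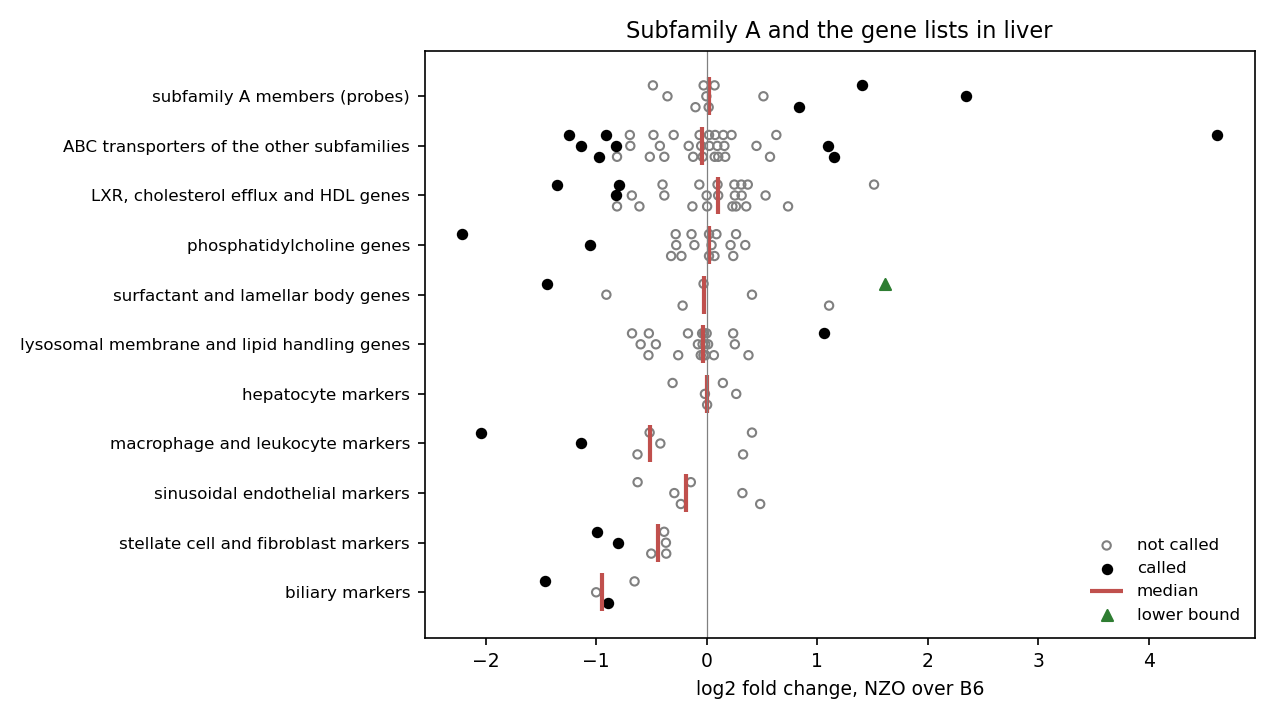
Log2 fold change of NZO over B6 (horizontal axis) for the 11 subfamily A probes and for the tested genes of 10 gene lists (vertical axis, where the offset within a row only separates points). Filled points were called, open points were not, and red bars are medians. The triangle is the lower bound of Slc34a2 (at least 3.05-fold), which was at background in B6. Abca3 lies at 2.35 and Abcb1b at 4.62.

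Markers of other liver cells stand here beside the values above, and some of them were called different between the strains. The stellate cell and fibroblast genes Lrat, Dcn, Col1a1, Col3a1, Pdgfrb and Reln were all measured, 0 of 6 were called higher and 2 lower (Pdgfrb and Col3a1), beside 4.52% and 5.49% of all genes, and their summed signal, led by Dcn, was 46.9 to 57.8 times the array's 75th percentile in NZO against 67.2 to 73.3 in B6. Of 7 macrophage and leukocyte genes (Ptprc, Cd68, Lyz2, Adgre1, Clec4f, Itgax and Cd3e), 0 were called higher and 2 lower (Clec4f and Itgax), beside the same 4.52% and 5.49%. Itgax was tested through B6 alone, with 2 NZO arrays above background. The sum, led by Clec4f, was 28.8 to 38.0 in NZO against 48.2 to 61.6 in B6. The list was not uniform in direction, since Lyz2 had a value of 0.41 (0.46 without NZO 007) that did not pass the test. Cd3e had 0.33, which rested on NZO 007 and was 0.00 without it. Of 5 biliary genes (Krt19, Krt7, Epcam, Sox9 and Spp1), 4 were tested, 0 were called higher and 2 lower (Sox9 and Spp1), again beside 4.52% and 5.49%, and the sum, led by Spp1, was 1.71 to 2.55 against 3.46 to 5.52. For 6 sinusoidal endothelial genes (Stab1, Stab2, Lyve1, Clec4g, Oit3 and Kdr), led by Clec4g, 0 were called and the sums overlapped, with 87.9 to 116.1 in NZO and 89.0 to 100.5 in B6. Of the adipocyte genes Adipoq, Plin1, Lep, Cidec, Fabp4 and Car3, 3 were tested and 0 called, the defining genes Adipoq, Plin1 and Lep were at background on all 8 arrays, and the sum of 564.7 to 643.7 in NZO and 409.2 to 481.4 in B6 was led by Car3, which hepatocytes also express. The calls of Col3a1, Itgax and Spp1 were lost when 1 of 6, 7 or 5 of the arrays, respectively, was left out, those of Pdgfrb, Clec4f and Sox9 in no such case. Pdgfrb (-0.53), Sox9 (-0.58) and Itgax (-0.37) were not called with normexp background correction. None of these 6 genes was called with the slide as a fixed block. Their values there were -0.90 (Pdgfrb), -1.07 (Clec4f), -1.72 (Sox9), -2.66 (Itgax), -0.83 (Spp1) and -0.69 (Col3a1). The summed signals of stellate, macrophage and biliary genes were thus below those of B6 on all 4 NZO arrays, while Abca3 and Abca5 were above. The summed signal of the 5 hepatocyte genes, led by Alb, was above B6 as well, with 3789 to 3917 in NZO and 3002 to 3766 in B6. Those genes did not share a direction, with log2 fold changes of 0.27 (Alb), 0.15 (Ttr), 0.00 (Apoa1), -0.02 (Cps1) and -0.31 (Tat). Their median was 0.00. The part of these markers in the values of the subfamily was not tested.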

How the data were processed

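RNA of 4 NZO and 4 B6 livers was measured on 1-colour arrays, and groups follow the sample titles and strain labels. Scanner files were deposited for every array, and their intensity values were made by Agilent Feature Extraction (version 11.0.1.1 per the file headers, 9.1 in the submitters' processing notes), along with a deposited table named as normalized, which equalled the raw median intensity for all 59305 spots (tolerance 0.01). The processed signal was used here, from which the software has subtracted background within an array and which is not scaled between arrays. Control spots and 96 to 137 outlier spots per array were left out, log2 values were centred on each array's 75th percentile and spots of a probe were averaged. A probe was tested when the 4 arrays of either strain all had it well above background (27643 of 55681). The number of arrays limits the precision.

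Strains were compared with limma 3.58.1 in R 4.3.3 (data.table version 1.17.8), without a block, and p-values measure only the spread between these samples. Probes were matched to genes of RefSeq on GRCm38.p6 by accession (27656), symbol (3401) or synonym (321), and 24303 stayed unmatched. Each member probe was kept separate, whereas list and neighbour genes were represented by their brightest tested probe. A marker sum adds the linear signals of the brightest probes relative to the 75th percentile. In a fold against background, an array of the strain at background counts with the smallest signal detected above background there, or with its own signal where that is larger. Arrays of the other strain count with their own signal.

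The members and all gene lists were chosen with earlier results of these data known. The genes named were all member probes, the called genes of each list with the largest changes (up to 6), Abcg5, Abcg8, Abcb4, Abcb11, Nr1h3 and Apoa1, all tested neighbours and the 5 genes most like Abca3. Abcg3, Cyp7a1, Lamp1, Lamp2, Lamp3, Sftpa1, Sftpb, Sftpc, Sftpd, Nkx2-1, Npw, Bricd5 and Tbc1d24 were named after their values were seen. The fit was tested on simulated data. Alternatives were normexp background correction (offset 50), quantile normalization, centring on the median, the deposited table, other filters on dim probes, slide, scan day or replicate number as a block, the methods' t-test and thresholds, other probes per gene, and leaving out each array. Plots were drawn with Python 3.11.15, pandas 2.3.3 and matplotlib 3.10.9.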

Additional observations from a re-analysis of the deposited data

Results flagged for a closer look

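In groups of 4 arrays, an array was singled out when its gap to the nearest other array took up more of the group's range than Dixon's critical value, which chance alone gives in about 1 of 20 groups. Of 124 groups examined for the genes named, 7 held such an array, and of the 22 groups of the subfamily A probes 0 did. Among the genes patterned like Abca3, Gstm7 was highest in B6 010 (2.49) and Ccdc68 lowest in NZO 007 (1.5). Among the neighbours of Abca3, Ccnf was lowest in NZO 007 (-0.562) and Pkd1 highest there (1.91), and Ntn3 was lowest in B6 015 (-0.625). Abcg5 was highest in B6 015 (5.31), as was Itgax (-1.18). NZO 007 was also the array with the highest skeletal muscle signal.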

How the results depend on the processing

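Abca3 was called in every alternative in which single probes were examined except the replicate block, and its log2 fold change stayed between 2.17 and 2.43. It was 2.24 with quantile normalization and 2.17 with the table deposited as normalized, in which the median of all probes was -0.15 (0.01 in the values reported, 0.04 with normexp background correction) and 576 probes were called higher, 28.8% of all called against 45.1%. That unscaled table also gave Abca1 -0.62, Abca2 -0.22 (A_52_P485007) and -0.20 (A_55_P2021177), Abca7 -0.30, Abca8a -0.15, Abca8b 0.20 and Abca5 0.39 (A_52_P307961) and 0.42 (A_52_P519653), with 1 member probe called. It called 25 genes of the other lists against 17, among them 7 of the LXR list (against 3), 5 of the lysosomal list (against 1) and 1 of the surfactant list (against 2). With normexp background correction, 616 probes were called higher and 583 lower, Abca5 had 0.42 (A_52_P307961) and 0.41 (A_52_P519653), and 1 member probe was called. With the slide as a fixed block, which rests on the 1 slide with both strains, 497 probes were higher, 1 member probe, 2 other ABC genes and 6 genes of the other lists were called, and the values were -0.13 and -0.17 for Abca2 and 1.09 for Abca5 (A_52_P307961). Of the 24 called list genes, 7 stayed called in that fit (Abcb1b, Abcc3, Ccnf, Dnase1l2, Lipa, Slc34a2 and Tedc2). Centring on the median ended the calls of Abcg5, Col3a1, Spp1 and Srebf1. Their values were then -0.76, -0.73, -0.83 and -0.72, against -0.82, -0.80, -0.89 and -0.79 in the values reported. Among probes above background on all 8 arrays, 964 were lower and 5 other ABC genes were called. With the methods' t-test (Welch) after adjustment, 890 probes were lower and 11 genes of the other lists were called, against 17. The causes were not tested.

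The replicate block ties NZO and B6 samples of the numbers 009 and 011, which share only a number (their deviations from the strain means correlated at -0.26 and -0.004). It left 1 residual degree of freedom and called 72 probes higher, 134 lower, 0 member probes, 1 other ABC gene (Abcb1b) and 0 genes of the other lists, with 2.43 for Abca3 and 0.21 for Abca9.

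Leaving out 1 array gave 1056 to 1219 higher and 1221 to 1464 lower probes, 3 member probes in each case, 7 to 9 other ABC genes, 13 to 17 genes of the other lists, and 2.30 to 2.38 for Abca3, 0.75 to 0.92 (A_52_P307961) and 1.27 to 1.47 (A_52_P519653) for Abca5, -0.49 to -0.27 for Abca1, -0.54 to -0.37 for Abca6 and 0.43 to 0.58 for Abca8b. For Abca2, Abca7, Abca8a and Abca9 these values stayed within 0.14 of 0. Of the list and neighbour genes printed with a value, Apoa1 (-0.03), Lamp2 (0.04) and Rab26os (-0.11) changed sign without NZO 007. Other small values moved without it as well, among them Abcb4 (0.11), Rnps1 (0.12), Amdhd2 (0.03), Tsc2 (0.10) and Nr1h3 (0.15). Of 322 further values, counts of called genes for single lists, 249 stayed within 1.5 times the count reported. The 24 called genes of the lists kept their direction within the slide with both strains (1 NZO and 2 B6 arrays) and within each scan day.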
